A study of Rattus norvegicus with 54 samples.

Results

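Creatine kinases, the creatine transporter, adenylate kinase and myoglobin of the rat left ventricle were followed across 3 treatments and 3 zones of the heart. The 6 genes are Ckm (the muscle-type creatine kinase of the cytosol), Ckmt2 (the sarcomeric creatine kinase of mitochondria), Ckb (the brain-type creatine kinase of the cytosol), Slc6a8 (the creatine transporter of the plasma membrane), Ak1 (a cytosolic adenylate kinase) and Mb (myoglobin). They were taken by symbol, by a rule that uses no measured value, though with earlier results of these data known. All 6 were found among the 40319 genes listed in each of the 54 count tables. The lowest count of any of them in any library was 56. Bulk poly(A) RNA-seq was made from 18 female F344/NJcl-rnu/rnu rats, an athymic strain, operated on at 8 weeks of age and killed 1 week later. The 3 groups of 6 hearts were a sham operation, myocardial infarction (MI) by permanent ligation of the left anterior descending coronary artery without treatment, and the same ligation with a bi-level cell sheet of human smooth muscle cells (SMC) and endothelial progenitor cells (EPC) laid on the infarct. The strain has no thymus and so few T cells, in sham animals too, and every heart gave an infarct zone (anterior wall), a border zone (lateral wall) and a remote zone (septum), so that the sham "infarct zone" is intact anterior wall.

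The creatine kinase system moves energy from where it is made to where it is used. Mitochondrial creatine kinase charges creatine to phosphocreatine beside the sites of ATP synthesis, and the cytosolic enzymes, as dimers of M and B subunits, use phosphocreatine to restore ATP at myofibrils and ion pumps. Heart muscle makes little creatine itself and takes it up through the transporter encoded by Slc6a8. Adenylate kinase joins a pair of ADP molecules to ATP and AMP and so recovers ATP when demand is high, and myoglobin binds oxygen in the cytosol of heart and slow skeletal muscle. The adult heart uses mainly the M subunit, while the B subunit is common in brain, smooth muscle and the developing heart.

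The unit of level is CPM, which sets the counts on genes of each library to 1 common total with TMM factors over all 54 libraries, and log2 values carry an offset of 0.1 CPM. The counts on genes ran from about 12699200 to 23397800 per library. The share of all counts in the lines that name no gene moved with treatment and zone. Its median was 36.5% in the sham, 23.1% in the MI and 18.2% in the cell sheet-treated infarct zone. Remote zone medians were 38.1%, 37.7% and 29.1% in the same order, with 23.4% to 31.9% in treated and 29.2% to 40.3% in MI hearts. The part of this share in the results, calls of the remote zone included, was not tested. All 12 cardiomyocyte markers (troponins, myosins, titin and others) had counts in every library, and their summed level differed widely: a median of 74779 CPM in the sham infarct zone (27765 to 89049), 14657 CPM after MI (4036 to 45054) and 3726 CPM after the cell sheet (1089 to 40536). In the remote zone the medians were 79345, 43908 and 68648 CPM. Sham replicate 5 had the lowest sum of the sham hearts in all 3 zones, and its macrophage markers (mean log2 level 7.22 to 7.64) and proliferation markers (5.00 to 5.25) lay above the other sham libraries of all zones (at most 5.69 and 2.85). Cell sheet replicate 1 reached only 214 CPM of cardiomyocyte markers in the border zone against a group median of 25968 CPM, with a mean log2 level of 3.99 where the lowest of all infarct zone libraries had 6.26, and its adipocyte markers stood at 5.18. In bulk tissue fewer cardiomyocytes and less RNA per cardiomyocyte cannot be told apart, which applies to every difference below. The tables count rat genes only, and a share of human sheet cells in these counts was not tested.

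Promoters of 5 of the 6 genes were matched in RefSeq (assembly GRCr8, which is not the mRatBN7.2 assembly the counts were made on). The 250 bases before the start of Ckm, Mb and Ckb are shown because Ckm and Mb moved together across the libraries while Ckb did not move with them. Capitals mark the E-box CANNTG (read on both strands), the TATA-box core TATAA (read on both strands, and found on the gene's own strand) and a MEF2-like pattern (CTA and TAG with 4 bases of any kind between them). The intervals are chr1:88189211-88189460 on the plus strand for Ckm, chr7:110647743-110647992 on the minus strand for Mb and chr6:136553465-136553714 on the minus strand for Ckb. For Ckm the start used by this table lies inside the outermost span annotated for the gene.
Ckm: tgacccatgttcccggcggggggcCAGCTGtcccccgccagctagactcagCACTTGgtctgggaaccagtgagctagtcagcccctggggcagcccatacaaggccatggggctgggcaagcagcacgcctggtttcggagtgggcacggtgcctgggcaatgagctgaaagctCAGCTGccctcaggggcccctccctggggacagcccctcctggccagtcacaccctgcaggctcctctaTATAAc
Mb: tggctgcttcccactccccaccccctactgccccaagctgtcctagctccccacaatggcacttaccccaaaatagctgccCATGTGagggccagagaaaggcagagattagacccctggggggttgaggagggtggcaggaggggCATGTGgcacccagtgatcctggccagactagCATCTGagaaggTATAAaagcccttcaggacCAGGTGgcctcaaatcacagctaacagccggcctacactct
Ckb: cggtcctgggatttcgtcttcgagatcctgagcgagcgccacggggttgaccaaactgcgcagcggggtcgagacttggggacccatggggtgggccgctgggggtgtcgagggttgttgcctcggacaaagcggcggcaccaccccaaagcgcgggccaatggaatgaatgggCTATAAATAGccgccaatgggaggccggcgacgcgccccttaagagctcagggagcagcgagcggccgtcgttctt
Within this window Ckm held 3 E-boxes and Mb held 4, Ckmt2 had 2 and Slc6a8 had 1, and the letters did not occur in Ckb, against 65.5% of 33469 promoters of that length with at least 1. TATAA lay 75 to 71 bases before the Ckb start, 60 to 56 before the Mb start and 6 to 2 before the Ckm start, and 24% of all promoters held it on either strand. In Ckb it overlaps a match to the CTA and TAG pattern, CTATAAATAG, and a second match, CTAGTGGTAG, was found in Ckmt2, against 3.41% of all promoters. The motif GATAA was in none of the 5 windows and in 23.5% of all. These matches are letters in a window, not measured sites.

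MI against sham asks what the infarct did to the energy shuttle in each zone. Of the 6 genes 5 were lower in both infarct and border zones, and 4 of 6 were lower in the septum (edgeR's quasi-likelihood test, Benjamini-Hochberg adjustment over all genes tested). Over all genes, the shares called lower were 27.2% (infarct), 23.2% (border) and 14.2% (remote). Ckb did not pass in any zone, and Mb did not pass in the remote zone.

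**Figure D1:**
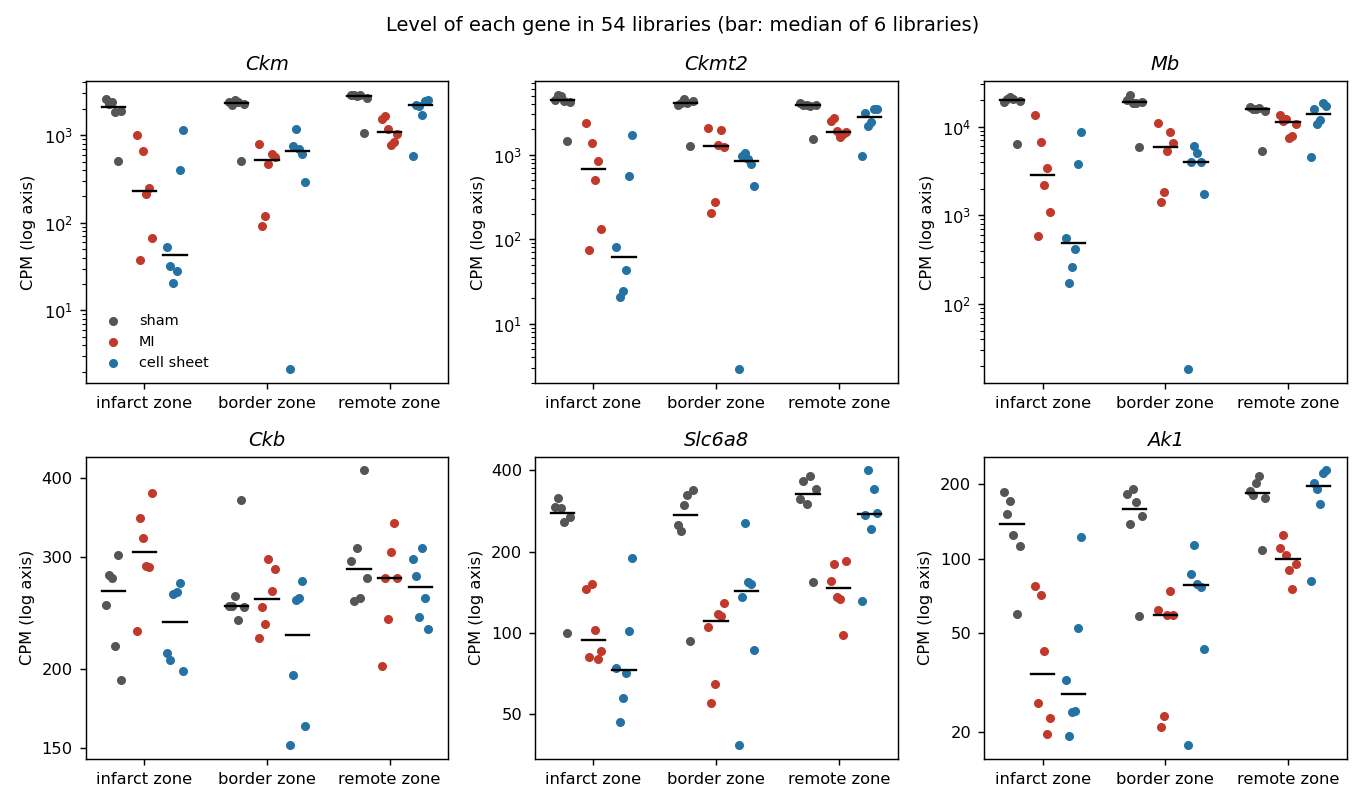
CPM of each gene on a log axis by zone (x axis) and treatment (colour), with 1 point per library and a bar at the median of 6. The medians of Ckm, Ckmt2, Mb, Slc6a8 and Ak1 were below those of sham after MI in every zone, while Ckb stayed between 152 and 411 CPM in all 54 libraries.

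Ckm, the main cytosolic kinase of muscle, fell in every zone. In the infarct zone it lay between 508 and 2604 CPM in sham hearts (median 2072) and between 37.8 and 1008 CPM after MI (median 230), a log2 fold change of -2.36 ± 0.72 (SE, 6 against 6 hearts, adjusted p = 0.0166). The border zone medians were 2337 and 517 CPM (-2.22 ± 0.55, adjusted p = 0.00862), and the remote zone medians 2823 CPM (1057 to 2887) and 1090 CPM (778 to 1642), or 46.1% of sham in the fit (-1.12 ± 0.26, adjusted p = 0.00812). All 6 MI libraries lay below the sham median in each zone, but the groups overlapped because sham replicate 5 was low. These 3 calls held whichever library was left out.

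Ckmt2, the mitochondrial partner, fell in the same zones. Sham infarct zones ranged from 1462 to 5112 CPM (median 4374) and MI infarct zones from 73.6 to 2355 CPM (median 675), a difference of -2.21 ± 0.71 (adjusted p = 0.0213). Border zone medians were 4064 and 1259 CPM (-1.67 ± 0.55, adjusted p = 0.0292), and in the remote zone 3850 and 1875 CPM (-0.76 ± 0.22, adjusted p = 0.0253). The border call was lost without any 1 of sham 2, 3, 4 and 6 and MI 6 (adjusted p up to 0.0558), and the remote call without any 1 of sham 1, 2, 3, 4 and 6 and MI 3, 4, 5 and 6 (up to 0.0599). Without the low sham replicate 5 the remote difference was -0.91 ± 0.14 (adjusted p = 0.000162).

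Ckb, the other cytosolic isoform, did not follow them. It ranged from 192 to 303 CPM in sham infarct zones (median 265) and from 230 to 379 CPM after MI (median 306), a log2 difference of 0.28 ± 0.15 (adjusted p = 0.126). The border difference was -0.06 ± 0.13 (adjusted p = 0.742) and the remote difference -0.14 ± 0.15 (adjusted p = 0.496). These values depend on the scaling. With library size in place of TMM the median of all genes rose by 0.26, 0.19 and 0.13 in the infarct, border and remote zone, and the share of calls that were higher went from 45.5% to 67.1%, from 44.2% to 64.1% and from 45.1% to 68.6%. The same change took the share from 49.5% to 66.3% and from 46.8% to 71.2% for the sheet against sham in the infarct and border zone, from 47.2% to 57.3% and from 60.2% to 48.5% for the sheet against MI in the border and remote zone, and from 47.0% to 62.5% for the difference of MI effects between infarct and remote zone. For zones of the same heart it went from 50.3% to 63.2% (MI, infarct), from 50.1% to 64.5% (sheet, infarct) and from 51.8% to 68.4% (sheet, border), each against the remote zone. With library size, Ckb was higher after MI than in sham in the infarct zone by 0.55 ± 0.17 (adjusted p = 0.0167), and its border difference turned to 0.13. With TMM but without MI replicate 1, Ckb passed in the infarct zone at 0.38 (adjusted p = 0.0259).

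Slc6a8, through which creatine enters the cell, was lower in all 3 zones. Its medians were 279 CPM in sham (100 to 315) and 94.1 CPM in MI infarct zones (80.1 to 152), a difference of -1.23 ± 0.27 (adjusted p = 0.0033). Those of the border zone were 274 and 110 CPM (-1.40 ± 0.30, adjusted p = 0.00491). Remote zones of sham hearts ranged from 154 to 382 CPM (median 327) and MI hearts from 98.4 to 185 CPM (median 146), or 47.8% of sham (-1.06 ± 0.20, adjusted p = 0.00333). The 5 sham hearts other than replicate 5 were all above every MI heart in the remote zone, and the calls held without any 1 library in each zone.

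Ak1 was lower in the 3 zones as well. Sham and MI medians were 138 CPM (59.7 to 185) and 34.4 CPM (19.7 to 77.3) in the infarct zone, with a difference of -1.63 ± 0.38 (adjusted p = 0.00507). They were 159 and 59.3 CPM in the border zone (-1.57 ± 0.35, adjusted p = 0.00595). Remote zone medians were 184 CPM (107.9 to 216) and 99.3 CPM (75.5 to 125), with a difference of -0.83 ± 0.16 (adjusted p = 0.00306). Leaving out any 1 library kept each of the 3 calls.

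Mb fell in the infarct and border zones. CPM is not set per transcript length, so that levels of different genes cannot be compared on it. The level of Mb ranged from 6366 to 21512 CPM in sham infarct zones (median 19993) and from 579 to 13739 CPM after MI (median 2826), a difference of -1.95 ± 0.68 (adjusted p = 0.0316). Border zone medians were 18801 and 5961 CPM (-1.59 ± 0.53, adjusted p = 0.0298). Those of the remote zone were 15973 and 11234 CPM, and the difference of -0.42 ± 0.28 did not pass (adjusted p = 0.283). The infarct call was lost without any 1 of sham 1, 2, 3, 4 and 6 and MI 4, 5 and 6 (adjusted p up to 0.0665), and the border call without any 1 of sham 1, 2, 3, 4 and 6 and MI 3, 4 and 6 (up to 0.0572). Without sham replicate 5 the remote difference passed, at -0.58 ± 0.17 (adjusted p = 0.0128).

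MI replicate 1 kept the highest infarct zone level of Ckm, Ckmt2 and Mb among MI hearts. Without it the differences there were -2.98 ± 0.71, -2.81 ± 0.70 and -2.67 ± 0.62.

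**Figure D2:**
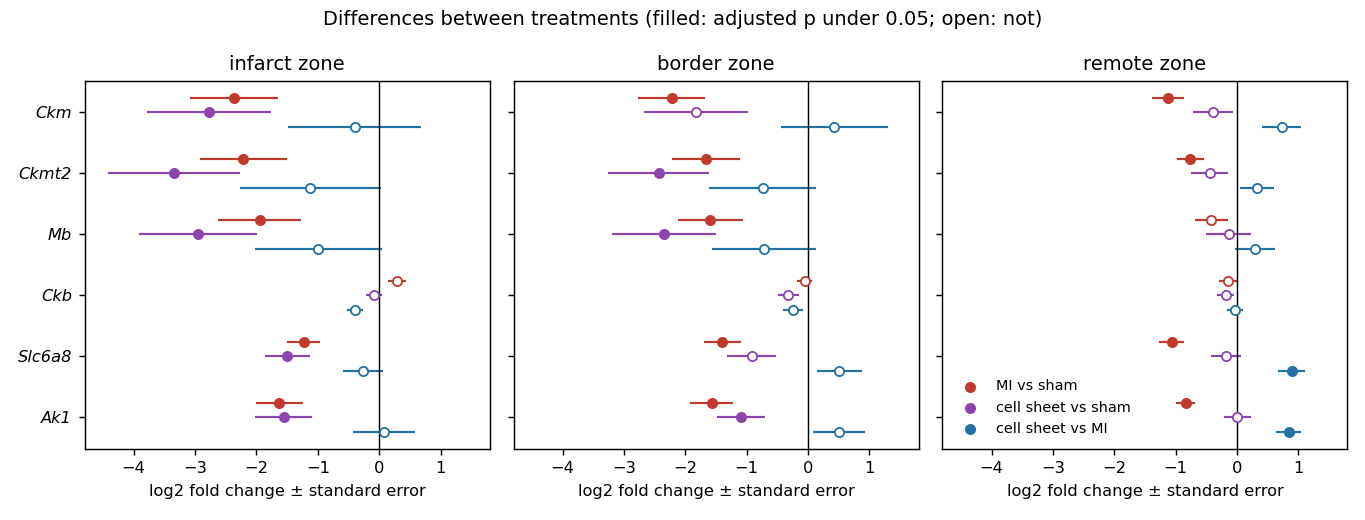
Log2 fold changes with their standard errors (x axis) for each gene (y axis) in the 3 zones, with filled points where the adjusted p was under 0.05. In the remote zone the MI-against-sham points of Ckm (-1.12) and Slc6a8 (-1.06) lie farthest left, and Slc6a8 (0.89) and Ak1 (0.84) are the filled cell sheet-against-MI points.

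Markers of other cells moved with these differences. On the scale of mean log2 level, the 8 fibroblast markers were higher in MI than in sham by 2.20 in the infarct, 2.11 in the border and 1.58 in the remote zone, and the 8 macrophage markers by 1.64, 1.75 and 1.19. The 12 cardiomyocyte markers were lower by 2.25, 1.76 and 0.67, with 12, 11 and 5 of the 12 called lower. Their median log2 fold changes by edgeR, the scale of the gene values above, were -1.76, -1.54 and -0.54. The smooth muscle list was higher by 2.58, 1.89 and 0.62, the proliferation list by 1.78, 1.89 and 2.10, and the endothelial list by -0.35, -0.23 and 0.01. The nerve list differed by 0.25, 0.21 and -0.42. The part of these shifts in the differences of the 6 genes was not tested here beyond the comparison with the cardiomyocyte list given below.

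Whether the loss differed between zones was tested as an interaction within animals. Against the remote zone, the MI effect in the infarct zone was more negative for Mb (difference of log2 effects -2.18 ± 0.62, adjusted p = 0.0189), Ckmt2 (-2.10 ± 0.73, adjusted p = 0.0453) and Ak1 (-0.92 ± 0.30, adjusted p = 0.036), and more positive for Ckb (0.43 ± 0.15, adjusted p = 0.0482). Thus 4 of 6 genes were called, where 28.9% of all genes were called in either direction. Ckm (-1.79 ± 0.69, adjusted p = 0.0655) and Slc6a8 (-0.15 ± 0.22, adjusted p = 0.647) did not pass, and for Slc6a8 the difference between the zones was small against its error. The call of Mb held whichever of 12 animals was left out. That of Ak1 was lost without any 1 of sham 1, 2, 3 and 6 and MI 2, 5 and 6 (adjusted p up to 0.0797), that of Ckmt2 without any 1 sham heart or MI 4 or 6 (up to 0.098), and that of Ckb without any 1 of sham 1, 3, 4, 5 and 6 and MI 1, 2, 3 and 6 (up to 0.106). Ckm passed without MI 1 (adjusted p = 0.0218) and also without MI 3. Neither the border zone against the remote zone nor the infarct against the border zone gave a call for any of the 6 genes or any other gene (0% of genes in both). At an unadjusted p under 0.05 there was 1 of the 6 in each, Mb in the first and Ckb in the second. Over all genes, 3995 of 16475 reached it in the first and 1430 of 16766 in the second. The limma-voom test, with animals as random effects, called 0 of the 6 in both.

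The cell sheet-treated hearts were then set against untreated MI hearts, to see whether the sheet changed the energy shuttle. Only the remote zone gave calls: Slc6a8 and Ak1 were higher, 2 of 6 genes against 10.3% of all genes called higher there. In the infarct zone 0 of 6 and 0% of all 16196 genes tested were called, with 1 of 6 (Ckb) and 1341 genes at an unadjusted p under 0.05, and DESeq2 called 0 of 6 and 85 genes. In the border zone 0 of 6 were called, by edgeR and by DESeq2, while 18.0% of all genes were called in either direction. There 0 of 6 reached an unadjusted p under 0.05, beside 5279 of all 16272 genes.

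Slc6a8 in the remote zone had a median of 275 CPM with the sheet (131 to 399) and 146 CPM without (98.4 to 185), and sham hearts had 327 CPM. Of the 6 sheet-treated hearts 5 lay above the highest MI heart, and replicate 1, at 131 CPM, lay among them. The difference was 0.89 ± 0.23 on the log2 scale (adjusted p = 0.0219). The call was lost without any 1 of MI 5 and cell sheet 3 and 5 (adjusted p 0.0522 to 0.0541), and without cell sheet replicate 1 it was 1.03 ± 0.17 (adjusted p = 0.000537).

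Ak1 in the remote zone was also higher with the sheet. Its treated median was 196 CPM (81.1 to 226) against 99.3 CPM (75.5 to 125) after MI alone and 184 CPM in sham hearts. Again replicate 1 was the only treated heart inside the MI range. The difference was 0.84 ± 0.21 (adjusted p = 0.0197), lost without MI 5 (adjusted p = 0.05002), and without cell sheet replicate 1 it was 0.99 ± 0.13 (adjusted p = 0.000192).

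The creatine kinases and myoglobin did not pass in that zone with all libraries. Ckm had medians of 2205 CPM with the sheet (574 to 2518) and 1090 CPM without, a difference of 0.73 ± 0.31 (adjusted p = 0.117). Without cell sheet replicate 1, which was lowest, it was 0.92 ± 0.20 (adjusted p = 0.00325), and Ckmt2 then also passed, at 0.49 ± 0.18 (adjusted p = 0.0437) in place of 0.32 ± 0.27. Mb differed by 0.29 ± 0.33 and Ckb by -0.03 ± 0.13. In the same zone the fibroblast markers were lower with the sheet by 0.93 and the macrophage markers by 1.03, the proliferation list was lower by 1.37, the smooth muscle list was higher by 0.91 and the cardiomyocyte markers were higher by 0.46, with 2 of 12 called. Their part in the 2 calls was not tested.

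In the infarct zone the spread among treated hearts was wide. Ckm ranged from 20.8 to 1155 CPM with the sheet (median 42.7) and differed from MI by -0.40 ± 1.08 (adjusted p = 0.94). Mb had medians of 488 and 2826 CPM (-0.99 ± 1.04, adjusted p = 0.829), and Ckmt2 had 62.1 and 675 CPM (-1.12 ± 1.15, adjusted p = 0.826). Cell sheet replicate 6 was the highest treated heart for these 3 genes, and its skeletal muscle markers summed to 414 CPM, against 8.30 to 53.1 CPM in the sham and MI libraries of all zones. On the scale of mean log2 level these markers stood at 5.16 in replicate 6 and 3.37 in replicate 2 of the treated infarct zone, and at -0.33 to -0.18 in the other 4, and their part in the values was not tested. Without it the differences were -1.80 ± 1.00 for Ckm, -2.16 ± 0.99 for Mb and -2.61 ± 1.10 for Ckmt2, and still 0 of 6 genes passed. In the border zone the values were 0.43 ± 0.87 for Ckm, -0.74 ± 0.88 for Ckmt2, -0.72 ± 0.85 for Mb, 0.51 ± 0.37 for Slc6a8, 0.50 ± 0.42 for Ak1 and -0.25 ± 0.16 for Ckb. The standard errors of Ckm, Ckmt2 and Mb in both zones ran from 0.85 to 1.15 log2 units. The test of whether the sheet's effect differed between zones called 0 of 6 and 0% of all genes in each of its 3 pairs of zones (infarct and remote, border and remote, infarct and border). At an unadjusted p under 0.05 there was 1 of 6 (Slc6a8, infarct against remote), beside 4190 of all 16902 genes, and limma-voom called 0. Without cell sheet replicate 1 that difference passed, at -1.41 (adjusted p = 0.0391).

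Cell sheet-treated hearts against sham hearts show how far each gene stood from the operated control. In the infarct zone 5 of 6 genes were lower, all but Ckb, where 29.2% of all genes were called lower. The differences were -3.34 ± 1.08 for Ckmt2 (adjusted p = 0.0193), -2.95 ± 0.96 for Mb (adjusted p = 0.0208), -2.77 ± 1.01 for Ckm (adjusted p = 0.0325), -1.55 ± 0.46 for Ak1 (adjusted p = 0.0132) and -1.5 ± 0.37 for Slc6a8 (adjusted p = 0.00473). In mean log2 level, a scale unlike that of these edgeR values, the cardiomyocyte markers were lower by 3.67 in this zone and by 2.46 in the border zone. By edgeR the median log2 fold change of the 12 markers was -2.44 and -1.67 in the same order. In mean log2 level the fibroblast markers were higher by 2.64 and 2.18, the macrophage markers by 1.98 and 1.76 and the smooth muscle markers by 3.08 and 2.24. The part of these shifts in the differences of the 6 genes was not tested. Ckb differed by -0.09 ± 0.13, which turned to 0.17 with library size in place of TMM. The Ckm call was lost without any 1 of sham 1, 2 and 3 and cell sheet 1, 2 and 4 (adjusted p up to 0.0612), and the other 4 calls held. Without cell sheet replicate 6, the highest treated heart, the differences were -4.18 ± 0.89 for Ckm, -4.84 ± 0.96 for Ckmt2 and -4.13 ± 0.88 for Mb.

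In the border zone 3 of 6 genes were lower than in sham, where 23.2% of all genes were called lower. Ckmt2 had medians of 838 CPM (2.88 to 1051) and 4064 CPM (1267 to 4511), a difference of -2.44 ± 0.83 (edgeR, adjusted p = 0.0311). Its groups did not overlap, and how many of all genes share this was not counted. Mb (-2.34 ± 0.85, adjusted p = 0.041) and Ak1 (-1.10 ± 0.39, adjusted p = 0.0388) also passed, and Ckm (-1.82 ± 0.85, adjusted p = 0.0988) and Slc6a8 (-0.92 ± 0.40, adjusted p = 0.0803) did not. Cell sheet replicate 1, at 2.12 CPM of Ckm and 18.2 CPM of Mb, set the spread. Without both it and sham replicate 5, a choice made after the values were seen, 5 of 6 passed, with Ckm at -1.76 (adjusted p = 0.000299) and Slc6a8 at -0.90 (adjusted p = 0.00529). With all other libraries kept, the Ckmt2 call was lost without any 1 of sham 2, 3, 4 and 6 and cell sheet 5 and 6 (adjusted p up to 0.0663), the Ak1 call without any 1 of sham 1, 2, 3, 4 and 6 and cell sheet 4, 5 and 6 (up to 0.0829), and the Mb call without these or cell sheet 2 (up to 0.0859). Adipocyte markers in the treated border zone summed to a median of 236 CPM (0.728 to 605), against at most 34.1 CPM in the other border zones, and their part in these differences was not tested.

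Remote zones of treated hearts differed from sham in 0 of 6 genes, by edgeR, by DESeq2 or at an unadjusted p under 0.05. Over all genes 0.00660% (1 of 15157) were called, or 220 genes by DESeq2, and 1520 reached an unadjusted p under 0.05. The differences were -0.40 ± 0.33 for Ckm, -0.44 ± 0.30 for Ckmt2, -0.18 ± 0.14 for Ckb, -0.18 ± 0.24 for Slc6a8, 0.00 ± 0.22 for Ak1 and -0.13 ± 0.37 for Mb. The errors do not show that the groups were alike. The comparisons with sham and with MI share libraries and are given side by side only.

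The cytosolic isoforms were set against each other as the ratio of Ckb to Ckm counts. It is not corrected for transcript length and serves to compare libraries. Since Ckb changed little, the ratio mostly restates the fall of Ckm. In the infarct zone mean log2 CPM was 10.73 in sham and 7.72 after MI for Ckm, and 7.97 and 8.26 for Ckb. A change of isoform within cardiomyocytes was not tested, nor was the part of cell makeup. In sham hearts there were 0.118 Ckb counts per Ckm count in the infarct zone (median; 0.0968 to 0.596), 0.107 in the border zone (0.0992 to 0.730) and 0.104 in the remote zone (0.0889 to 0.389), with replicate 5 highest in each. After MI the medians were 1.27 (0.228 to 9.16), 0.573 (0.281 to 2.74) and 0.240 (0.133 to 0.409). With the cell sheet they were 5.22 (0.172 to 12.6), 0.412 (0.220 to 71.4) and 0.118 (0.0918 to 0.519). Ckb counts exceeded Ckm counts in 4 of 6 MI infarct zones, 2 of 6 MI border zones, 4 of 6 treated infarct zones and 1 of 6 treated border zones, and in 0 of 18 sham libraries and 0 of the 12 remote libraries of infarcted hearts.

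**Figure D3:**
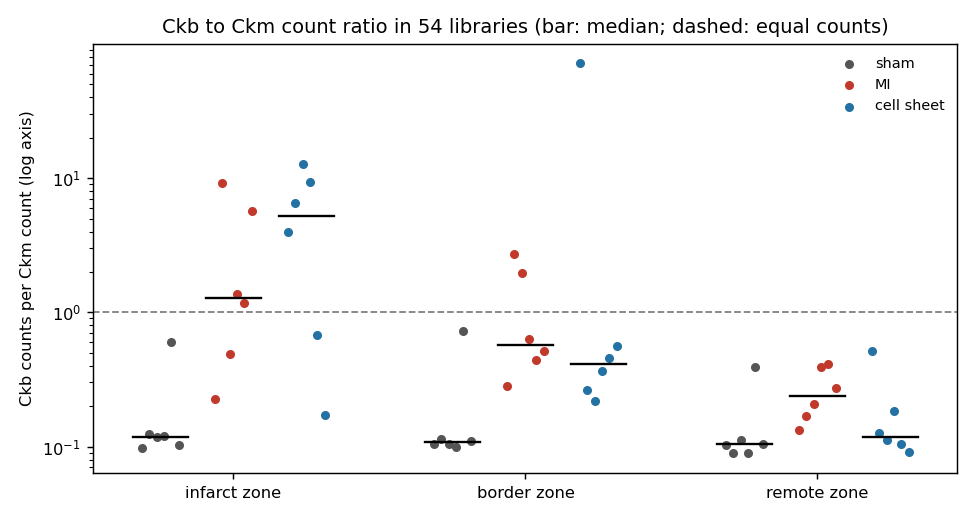
Ckb counts per Ckm count on a log axis for each library, by zone and treatment, with bars at the medians and a dashed line where both counts are equal. Sham libraries other than replicate 5 sit near 0.1 in every zone, and 4 of 6 libraries lie above the line in both the MI and the cell sheet-treated infarct zone.

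The log2 ratio was higher than in sham by 3.30 in the MI infarct zone (exact permutation test, 2-sided, p = 0.00649, adjusted over 9 comparisons 0.0292), by 4.17 in the treated infarct zone (p = 0.00433, adjusted p = 0.0292) and by 2.40 in the MI border zone (p = 0.0108, adjusted p = 0.0325). Those are 9.86-fold, 18.02-fold and 5.28-fold differences of geometric means, and the standard deviations within groups were 1.00 (sham), 2.03 (MI) and 2.44 (cell sheet) log2 units in the infarct zone. The treated border zone (2.53, adjusted p = 0.0584 by the exact test) and the MI remote zone (0.96, adjusted p = 0.0818 by the exact test) did not pass. The exact test found no difference between sheet and MI in the infarct (0.87, adjusted p = 0.58), border (0.13, adjusted p = 0.961) or remote zone (-0.67, adjusted p = 0.263). Each of the 3 calls was lost without any 1 of sham 1, 2, 3, 4 and 6 and the border call also without MI 2 (exact test, adjusted p 0.0519 to 0.0649). Without sham replicate 5, MI passed in the remote zone as well (1.29, adjusted p = 0.00974 by the exact test), and without cell sheet replicate 1 the treated remote zone was lower than MI (-1.02, adjusted p = 0.039 by the exact test). The smallest p that 6 against 6 can give is 0.00216.

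Each gene was also set against the mean log2 level of the 12 cardiomyocyte genes of the same library. A difference of 0 on this scale means that a gene moved as much as that mean. A gene that fell, but by less than that mean, stands higher on it. Of 54 exact permutation tests (6 genes, 9 comparisons, 6 against 6 libraries) 22 passed after adjustment over the 54, with unadjusted p from 0.00216, the smallest possible, to 0.0173. The count was 19 with the median of the 12 genes in place of the mean, 20 without sham replicate 5, and 5 or 6 without any 1 of the other 5 sham hearts. Most of the 22 calls were thus lost without any 1 of those 5 hearts. How many of all genes would pass, or show groups without overlap, on this scale was not computed, so that these counts have no background.

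Against the markers, Ckm stood lower after MI than in sham in the infarct (-0.76, adjusted p = 0.0325), border (-0.68, adjusted p = 0.0195) and remote zone (-0.43, adjusted p = 0.0234), each by the exact permutation test. Ckmt2 was lower after MI in the infarct zone (-0.71, exact test, adjusted p = 0.0425). It was lower with the cell sheet than in sham in the infarct (-1.45, adjusted p = 0.013), border (-0.995, adjusted p = 0.013) and remote zone (-0.26, adjusted p = 0.0234) by the same exact test, without overlap of the groups in the first 2 of these. It was also lower with the sheet than after MI in the border zone (-0.73, exact test, adjusted p = 0.0275). Mb stood at 1.88 ± 0.27 (SD, n = 6) above the markers in MI border zones and at 1.06 ± 0.43 (n = 6) in treated ones, with no overlap (-0.82, exact test, adjusted p = 0.013), where the test on its CPM did not pass. With the sheet it was also lower than in sham in the infarct (-0.65) and border zone (-0.89), both without overlap (exact tests, adjusted p = 0.013).

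Slc6a8, Ak1 and Ckb stood higher against the markers in treated infarct and border zones than in sham. In CPM Slc6a8 and Ak1 did not rise there but fell, by less than that mean, so that these values largely restate the fall of the markers. The part of RNA from other cells was not tested. In the treated infarct zone they stood higher against the list than in sham by 2.10, 1.88 and 3.57 (exact tests, adjusted p = 0.013 for the first 2 of these), and in the treated border zone by 1.45, 1.26 and 2.12. The border values rest on cell sheet replicate 1, which stood at 1.28 (Slc6a8), 0.16 (Ak1) and 3.25 (Ckb) where the other 5 treated libraries had at most -3.15, -4.14 and -2.24. Without it the border differences were 0.66 and 0.49 for Slc6a8 and Ak1 (exact tests, adjusted p = 0.0146 each) and 1.10 for Ckb, which no longer passed (exact test, adjusted p = 0.0866). After MI alone Slc6a8 stood higher against the list in the infarct zone (1.06, exact test, adjusted p = 0.0369), where its CPM also fell by less than the markers. The values of Ckb, 2.54 in the infarct and 1.72 in the border zone after MI, restate that its level changed little while the markers fell, and are given as a description. In the remote zone Slc6a8 stood lower against the list after MI than in sham (-0.37, exact test, adjusted p = 0.0275). With the sheet Ak1 was above its MI value by 0.34 (exact test, adjusted p = 0.0195) and Slc6a8 by 0.40 (exact test, adjusted p = 0.0793).

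**Figure D4:**
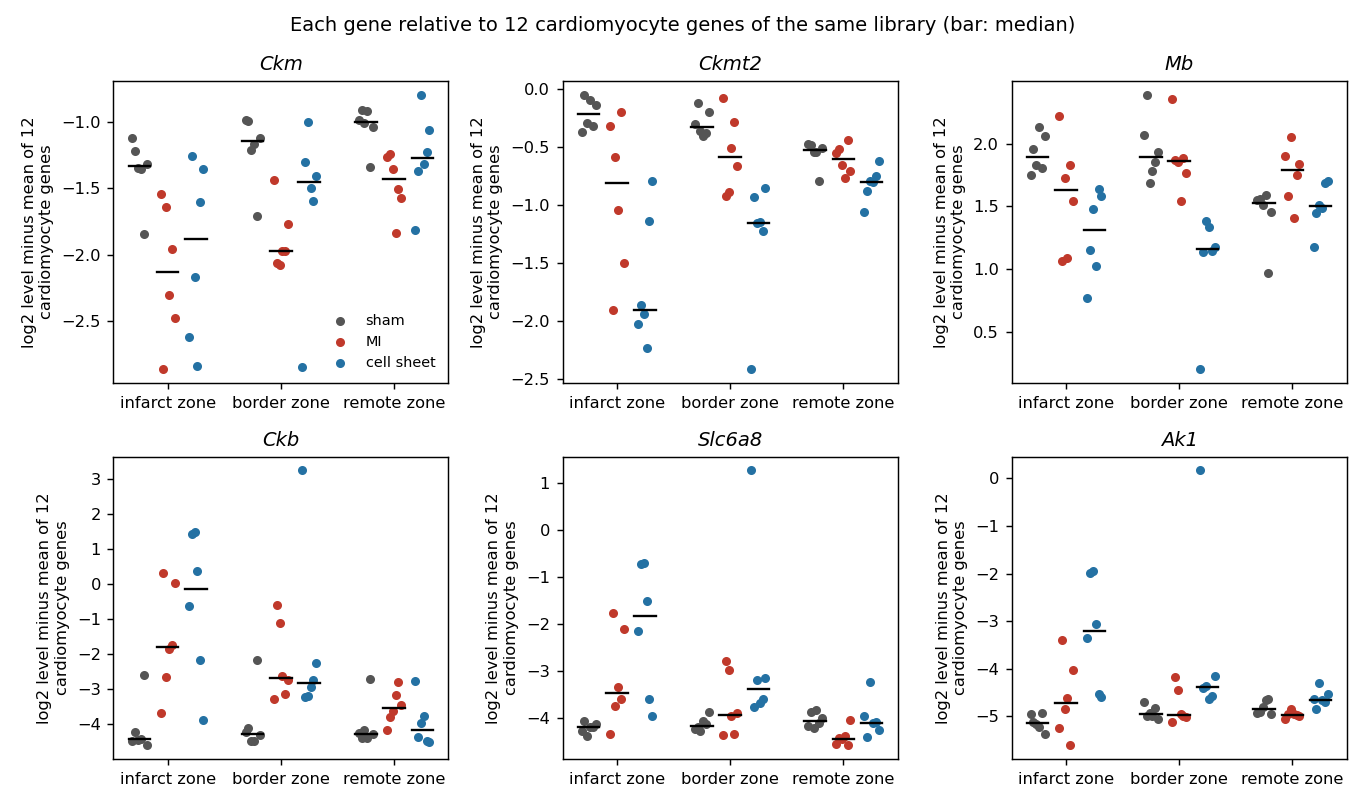
Log2 level of each gene minus the mean log2 level of 12 cardiomyocyte genes in the same library (y axis), by zone and treatment, with bars at the medians. Mb in the border zone separates treated libraries (1.38 at most) from MI libraries (1.54 at least), and Ckb, Slc6a8 and Ak1 stand higher in the treated than in the sham infarct zone.

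Zones of the same heart were compared with the animal as a block. In sham hearts the anterior wall differed from the septum in 5 of 6 genes, where 32.4% of all genes were called in either direction: Ckm (-0.48 ± 0.11), Ak1 (-0.46 ± 0.10), Slc6a8 (-0.31 ± 0.08) and Ckb (-0.24 ± 0.08) were lower, and Mb was higher (0.34 ± 0.09), with adjusted p from 0.00261 to 0.0334. The lateral wall of sham hearts was below the septum for Ckm (-0.38 ± 0.12), Ak1 (-0.32 ± 0.10) and Slc6a8 (-0.32 ± 0.10), 3 of 6 genes against 13.0% of all genes called lower. The anterior wall calls of Ckb were lost without any 1 of sham 1, 4, 5 and 6 and that of Mb without sham 2, and the lateral wall calls without any 1 of sham 1, 2 and 4 (Ckm), 1, 2, 4 and 5 (Slc6a8) or 2, 4 and 5 (Ak1), with adjusted p up to 0.139. Without the block 0 of 6 passed in either comparison.

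After MI the infarct zone was below the remote zone for Ckm (-2.27 ± 0.66), Mb (-1.85 ± 0.60) and Ak1 (-1.39 ± 0.26), 3 of 6 genes against 18.1% of all called lower. Of these the Ckm call was lost without any 1 of MI 4, 5 and 6 (adjusted p up to 0.0796) and the Mb call without any 1 of MI 3, 4, 5 and 6 (up to 0.113). The border zone of MI hearts gave 0 of 6 calls and 0% of all 15738 genes, although 3 of 6 and 5943 genes had an unadjusted p under 0.05. In sheet-treated hearts 5 of 6 genes, all but Ckb, were lower in the infarct than in the remote zone, by -4.53 ± 1.04 (Ckmt2), -4.38 ± 0.95 (Ckm), -3.85 ± 0.94 (Mb), -2.24 ± 0.36 (Ak1) and -1.70 ± 0.32 (Slc6a8), against 31.4% of all genes called lower, and these calls held without any 1 animal. Without replicate 6 the values were -5.004 for Ckm and -5.19 for Ckmt2, and Ckmt2 was -3.90 without replicate 2. In their border zone Ak1 (-1.48 ± 0.24) and Slc6a8 (-1.11 ± 0.19) were lower, 2 of 6 against 27.2% of all genes called lower. That count is near the background. Without replicate 1 the border differences of Ckm (-1.73, adjusted p = 0.00585), Ckmt2 (-1.83, adjusted p = 0.00391) and Mb (-1.86, adjusted p = 0.0117) passed too.

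Other genes of phosphate transfer gave the setting. A list of 33 (creatine synthesis, further adenylate kinases, AMP deaminases, nucleoside diphosphate kinases, mitochondrial carriers and pores, AMP-activated kinase subunits, cytoglobin and neuroglobin) had 32 in the files. After MI, 5 rose and 16 fell of 26 tested in the infarct zone, 3 rose and 14 fell in the border zone, and 4 rose and 12 fell in the remote zone. Over all genes, 22.7% (infarct), 18.4% (border) and 11.7% (remote) were called higher, beside the shares called lower given above. Their median log2 fold changes were -0.64, -0.42 and -0.28, against -0.02, -0.02 and -0.04 over all genes. Of those that rose, the 2 with most counts in each zone were among Cygb (0.37 ± 0.12 in the infarct and 0.42 ± 0.12 in the remote zone), the ATP-Mg carrier Slc25a24 (0.99 ± 0.23 in the border zone) and Gatm, described below. Of those that fell, the 2 with most counts in each zone were the adenine nucleotide carrier Slc25a4 (-2.01 ± 0.53, -1.67 ± 0.47 and -0.79 ± 0.23 in the infarct, border and remote zone) and the phosphate carrier Slc25a3 (-1.64 ± 0.38, -1.37 ± 0.34 and -0.61 ± 0.17). With the cell sheet against MI, 0 of 27 were called in the infarct zone, 4 of 27 fell in the border zone, and 4 rose and 2 fell of 26 in the remote zone. These counts are near the background, since 9.48% of all genes were called lower in the border zone and 10.3% higher and 6.79% lower in the remote zone. In the remote zone the outer membrane pore Vdac1 (0.69 ± 0.19) and the carrier Slc25a23 (0.87 ± 0.20) rose and Cygb fell (-0.36 ± 0.11). In the border zone Nme2, a nucleoside diphosphate kinase, fell (-0.84 ± 0.17) beside Gatm. Some of these calls were lost on leaving out 1 library: Slc25a4 after MI in the remote zone without any 1 of sham 1, 2, 3 and 4 and MI 3, 4 and 5 (adjusted p up to 0.0626), Cygb there without sham 2 or MI 4 (up to 0.0584), Vdac1 without any 1 of MI 3, 4 and 5 and cell sheet 2, 3, 5 and 6 (up to 0.0687), and Cygb with the sheet without any 1 of MI 3 to 6 and cell sheet 2 to 6 (up to 0.105). Against sham, sheet-treated hearts had 2 higher and 18 lower in the infarct zone, 4 higher and 14 lower in the border zone, and 0 of 27 called in the remote zone. Over all genes the shares called higher were 28.6% (infarct) and 20.4% (border). Slc25a4 (-2.80 ± 0.65) and Slc25a3 (-2.003 ± 0.45) led those lower in the infarct zone, and Slc25a24 (1.40 ± 0.26) and the AMP deaminase Ampd2 (0.94 ± 0.16) were the 2 higher.

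Creatine synthesis did not move as one with creatine uptake. Gatm, which makes the precursor guanidinoacetate, was higher after MI by 0.52 ± 0.13 in the infarct (adjusted p = 0.00602), 0.60 ± 0.10 in the border (adjusted p = 0.00119) and 0.76 ± 0.12 in the remote zone (adjusted p = 0.00134), while Slc6a8 fell in the same zones. In the remote zone it ranged from 27.2 to 37.9 CPM in sham hearts (median 30.7), from 42.3 to 63.4 CPM after MI (median 51.7) and from 21.4 to 40.0 CPM with the sheet (median 31.5). The MI hearts were thus apart from both other groups, and how many of all genes show this was not counted. By edgeR the sheet-treated hearts were lower than MI in the remote zone (-0.74 ± 0.15, adjusted p = 0.0101) and in the border zone (-0.51 ± 0.08, adjusted p = 0.00198). All 5 calls held without any 1 library. Gamt, which methylates guanidinoacetate to creatine and was looked at beside Gatm after the values were seen, went the other way: its remote zone medians were 128 CPM in sham, 78.0 CPM in MI and 122 CPM in treated hearts. It was lower after MI (-0.71 ± 0.21, adjusted p = 0.0248, lost without any 1 of sham 3 and 4 and MI 4 and 5), and the difference with the sheet did not pass (0.58 ± 0.23, adjusted p = 0.0936).

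**Figure D5:**
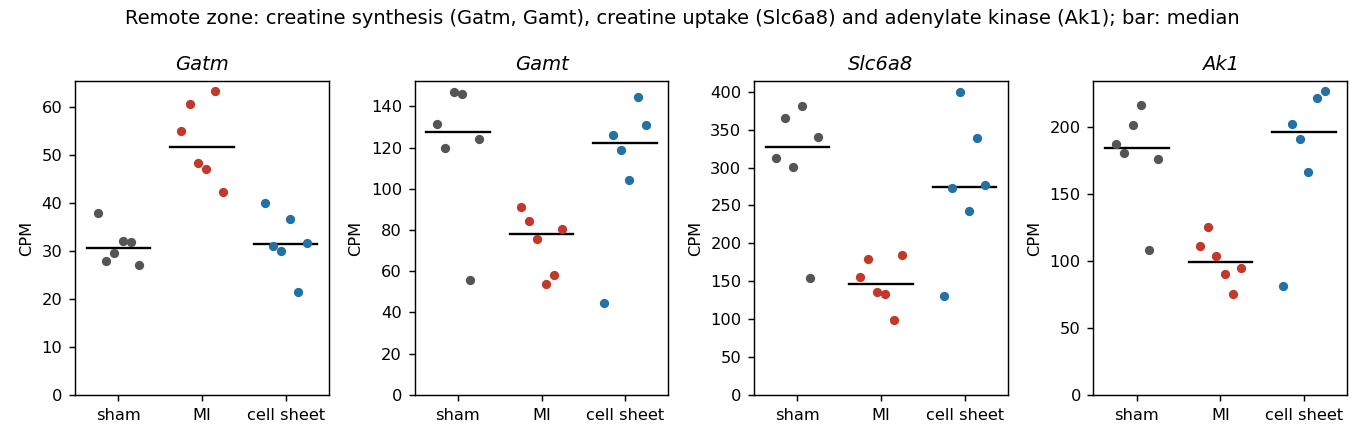
CPM of Gatm, Gamt, Slc6a8 and Ak1 in the remote zone, 1 panel per gene and 1 point per heart, with bars at the medians. MI hearts lie above both other groups for Gatm (42.3 to 63.4 CPM) and below 5 of 6 sham and 5 of 6 treated hearts for Slc6a8 and Ak1, the exceptions being sham replicate 5 and cell sheet replicate 1.

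For each gene the 3 most alike genes were taken by Pearson's r of log2 CPM over the 54 libraries, among 13291 genes, as a description. The libraries share depth, animals and cell makeup, and no p is given. Cell sheet replicate 1 of the border zone lay far below all others for Ckm, Ckmt2 and Mb. It had log2 CPM of 1.15, 1.57 and 4.19, against 4.38, 4.40 and 7.41 in the next lowest library. Its part in r was not tested. Ckm went with Hjv (0.995), Txlnb (0.993) and Asb2 (0.992). Ckmt2 went with Myl3 (0.995), Mb (0.993) and Tnnt2 (0.992), and Mb with Myl3 (0.995), Tnni3 (0.994) and Ckmt2 (0.993), of which Myl3, Tnnt2 and Tnni3 are cardiomyocyte markers used above. Ak1 went with Mfn2 (0.988), Fam210a (0.988) and Whrn (0.985), and Slc6a8 with Prkaca (0.973), Klc4 (0.973) and Ccpg1 (0.971). Ckb had no gene above 0.689 (Pgam1), followed by Plekho1 (0.644) and Agpat5 (0.643), and its r with the other 5 genes lay between 0.0647 and 0.201.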

How the data were processed

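Tissue of the infarct, border and remote zones of 18 rat hearts was sequenced as poly(A) RNA on a NovaSeq in paired ends. The authors aligned reads with STAR to mRatBN7.2 and deposited raw counts per gene of a RefSeq annotation, 1 table per library, and the counting program and strand setting are not given in the sources used here. The 5 lines that name no gene (16.99% to 42.8% of counts per library) entered neither library sizes nor tests. Depth was about 12699200 to 23397800 counts on genes, and the lowest count of any of the 6 genes was 56. The labels give 6 replicates per group and call them technical, while the study describes animals, so that p-values may measure only the spread between these samples. No 2 libraries of a group agreed within sampling noise (chi-square per degree of freedom 7.97 or more).

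Each pair of groups was fitted on its own with edgeR 4.0.16 (R 4.3.3; filterByExpr, TMM, glmQLFit and glmQLFTest), with Benjamini-Hochberg adjustment over all genes tested and a threshold of 0.05. Standard errors are the absolute log2 fold change divided by the square root of F. Zones within a group and differences of effects between zones were fitted with the animal as a block. Samples of 1 animal deviated together across zones only in part: 36 of 54 pairs of zones correlated above 0.1 (median r 0.220, range -0.460 to 0.928). All pairs of sham hearts were positive, and the negative pairs were of MI or sheet-treated hearts. The pairing of zones comes from the study's description of each heart giving 3 zones. The Ckb:Ckm ratio and the levels relative to cardiomyocyte genes were tested by exact permutation tests, 2-sided, in Python 3.11.15. The edgeR fits of a pair of groups, of interactions and of zones of a heart were checked on simulated counts, and the other tests were not.

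The 6 genes were named in every comparison, and of the 33 phosphate transfer genes the 2 of highest mean CPM in each direction were named. Marker lists are given as counts of called genes, summed CPM and mean log2 levels. Genes and lists were chosen with earlier results of these data known. Alternatives were library size and DESeq2 1.42.0 scaling, DESeq2 and limma 3.58.1 voom tests, other filters, joint fits, a fold limit, replicate blocks and each library left out. Leaving out both sham replicate 5 and cell sheet replicate 1 was added after seeing the data. Promoters came from RefSeq tables.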

Additional observations from a re-analysis of the deposited data

Results flagged for a closer look

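Of 63 groups of 6 libraries checked (6 genes and the Ckb:Ckm ratio in 9 groups), 25 held a library far from the other 5. Chance gives about 1 in 20 for a single check. The checks are not independent, since genes move together and each animal enters in 3 zones, so that the 25 cannot be set against that rate. All 25 were sham replicate 5 or cell sheet replicate 1. On the log2 CPM scale sham replicate 5 was lowest for Ckm in the infarct (8.99), border (8.98) and remote zone (10.05), for Ckmt2 in the same order (10.51, 10.31 and 10.60), for Slc6a8 (6.65, 6.55 and 7.27) and for Mb (12.64, 12.54 and 12.36), and for Ak1 in the border (5.87) and remote zone (6.76). It was highest for Ckb in the border zone (8.53) and for the log2 Ckb:Ckm ratio in the 3 zones (-0.75, -0.45 and -1.36). Cell sheet replicate 1 was lowest for Ckm (1.15 in the border and 9.17 in the remote zone), Ckmt2 (1.57 and 9.92), Ak1 in the remote zone (6.34) and Mb in the border zone (4.19), and highest for the border ratio (6.09).

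The MI effect differed between infarct and remote zone, by the interaction test of edgeR, for Mb (-2.18), Ckmt2 (-2.10), Ak1 (-0.92) and Ckb (0.43), and among the phosphate transfer genes with most counts in each direction for Slc25a4 (-1.54, lost without sham 3 or MI 6), Slc25a3 (-1.12) and Ampd2 (0.44, lost without any 1 of sham 3 and MI 3 and 6), as differences of log2 effects.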

How the results depend on the processing

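The counts of called genes among the 6 moved as follows. For MI against sham the infarct zone had 5 and 2 in a joint fit of its 3 groups. The border zone had 5, with 3 in that fit, 3 in a joint fit of all 9 groups and 3 with the replicate block. The remote zone had 4, with 1 in the fit of 9 groups and 2 under a fold limit of 1 on the log2 scale. For the sheet against MI in the remote zone the count was 2, with 0 in the fit of 9 groups, 0 with the replicate block and 0 under the fold limit. For the sheet against sham in the border zone it was 3, with 1 by library size, 1 without the filter, 0 with the replicate block, 5 by DESeq2 and 5 without both libraries that stood apart. With no replicate block the zones of sham hearts gave 0 (infarct, from 5) and 0 (border, from 3) and those of MI hearts 1 (infarct, from 3) and 2 (border, from 0). The cause was not tested.

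Leaving out 1 library gave 3 to 5 for MI against sham in the border zone, 0 to 4 for the sheet against sham there, 0 to 4 for the sheet against MI in the remote zone, 0 to 1 and 1 to 4 for the infarct-remote difference of the sheet and MI effects, 0 to 3 for sham border, 1 to 4 for MI infarct and 2 to 5 for treated border against remote zone, and 5 to 25 for the 22 relative levels. The log2 Ckb:Ckm differences from sham ranged from 2.77 to 3.84 (MI, infarct), 3.72 to 4.96 (sheet, infarct), 2.04 to 2.86 (MI, border), 1.27 to 2.99 (sheet, border), 0.81 to 1.29 (MI, remote) and -0.059 to 0.62 (sheet, remote), and sheet against MI from -1.13 to 0.52 (border) and -1.02 to -0.52 (remote). With 5 CPM added the border value of sheet against MI was -0.12, and as Ckb percent the sheet against sham in the border zone was 21.8 points and passed. The size of that difference leans on cell sheet replicate 1, at 96.8%, where the other treated border libraries had 10.3% to 18.5%.

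Replicate numbers did not pair the treatments (16 of 54 pairs correlated above 0.1, median r -0.0387). With the number as a block the ratio differences were 3.30 (MI, infarct), 4.17 (sheet, infarct) and 2.40 (MI, border). The exact sign-flip test of 6 pairs cannot go below an unadjusted p of 0.03125, so that its failure to pass over 9 comparisons says nothing. With 6 libraries a group, the standard errors of Ckm, Ckmt2 and Mb in infarct and border zones limit what can be shown, and no test of depth was run.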
